A study of Mus musculus with 14 samples.

Results

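Lrrc32 encodes GARP, a leucine-rich repeat protein of the cell surface, and 70 of the 240778 windows of the ATAC-seq count table belonged to its locus. A window was taken when, of all protein-coding genes, Lrrc32 had the start site closest to its centre, at 100 kb or less. Positions are those of GRCm38, the build of the table. All windows were 201 bp wide, so that levels can be compared between them. ATAC-seq measures open chromatin through a transposase that inserts sequencing adapters into accessible DNA.

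GARP holds latent TGF-beta, the inactive form of the cytokine, on the surface of activated Treg cells and of platelets. The integrin made of the alpha v and beta 8 chains can release the active cytokine from this complex, and so allows a Treg cell to present TGF-beta to itself and to its neighbours. Lrrc32 is widely used as a marker of activated Treg cells, and Nrros encodes a related docking protein found on myeloid cells.

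All mice carried the Foxp3AID allele, in which Foxp3 is fused to an auxin-inducible degron and is expressed with a ZsGreen reporter and Cre recombinase, and all received 5-ph-IAA. R26TIR1(F74G) mice also carried, at ROSA26, the plant receptor TIR1(F74G) with mCherry behind a loxP-flanked STOP cassette. TIR1(F74G) binds 5-ph-IAA and directs the fusion protein to degradation, and Cre from the Foxp3AID allele restricts it to cells that have expressed Foxp3. R26WT mice lacked the receptor and served as controls. By the labels, Treg cells came from spleen and lymph nodes of 4 R26WT and 4 R26TIR1(F74G) mice after 3 days of treatment and of 3 R26WT and 3 R26TIR1(F74G) mice after 7 days. The labels give neither sex, age, zygosity nor activation state. The study describes accessibility of resting and activated cells sorted on day 7, whereas these labels name Treg cells on both days, so whether a library holds resting, activated or all Treg cells is unknown here and no value was computed by activation state. Both groups therefore express the fusion protein, and a wild-type Foxp3 allele is in no group's label. The study, however, names heterozygous Foxp3AID/WT mice of both genotypes for its day 7 accessibility work, and its reporting summary describes such heterozygotes as female. By the study, Treg cells of these females express either the wild-type or the Foxp3AID allele, and ZsGreen comes with the latter. In bulk cells, a window open in fewer cells and a window less open in each cell cannot be told apart.

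Counts in windows ranged from 5653289 to 20184487 per library, the lowest being R26TIR1(F74G) replicate 1 of day 3. The next lowest, at 6348754, was R26WT replicate 3 of day 7, which is 1 of only 3 controls on that day. Start sites of all 5 T cell markers (Cd3e, Cd3g, Cd4, Cd5 and Lck) had a window within 1 kb, as had 3 of 5 Treg cell markers, while Foxp3 and Tnfrsf18 had none. None of 6 megakaryocyte and platelet markers had such a window (Pf4, Itga2b, Gp9, Gp1ba, Gp6 and Ppbp), and of 6 B cell markers only Ebf1 had one, at a mean of 3.497 CPM (counts relative to the library size). Start windows were also found for 4 of 6 myeloid markers (Spi1 at 4.22, Cd14 at 4.48, Cebpa at 3.12 and Itgam at 1.12 CPM), for both CD8 T cell markers (Cd8a at 1.33 and Cd8b1 at 12.5 CPM) and for 2 of 4 endothelial and stromal markers (Col1a1 at 10.6 and Pdgfra at 1.39 CPM). Each gene was given a single start site, so a missing window, as at Foxp3, does not show that a gene was closed. Levels overlapped between the lists, so these values do not measure the purity of the cells.

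The locus ran from chr7:98468699 to 98571988, and the body of Lrrc32 occupied 98489305 to 98501831 on the plus strand. Of the 70 windows, 10 lay upstream of the start site, 6 inside the gene and 54 downstream of its end. The neighbouring genes on both sides, Gucy2d and Emsy, bound the locus, and 5 of the upstream windows lay inside the body of Gucy2d although the start site of Lrrc32 was nearer. Because 45 windows overlapped another, they formed 41 separate runs, and joining gaps of up to 1000 bp gave 14 regions.

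One upstream window, chr7:98481089-98481290, covered the start site of the long non-coding RNA Gm38588 at 98481265, 8.1 kb before Lrrc32. The promoters taken from RefSeq had no entry for Lrrc32, although a window also covered the start site of Lrrc32. The promoter of Gm38588 is shown because, among those with an entry, it is the one that a window of the locus covers. The bases are chr7:98481015-98481314, plus strand, GRCm38.p6, with the bases covered by the window in capitals (to within 1 base at its left end).
Gm38588 promoter: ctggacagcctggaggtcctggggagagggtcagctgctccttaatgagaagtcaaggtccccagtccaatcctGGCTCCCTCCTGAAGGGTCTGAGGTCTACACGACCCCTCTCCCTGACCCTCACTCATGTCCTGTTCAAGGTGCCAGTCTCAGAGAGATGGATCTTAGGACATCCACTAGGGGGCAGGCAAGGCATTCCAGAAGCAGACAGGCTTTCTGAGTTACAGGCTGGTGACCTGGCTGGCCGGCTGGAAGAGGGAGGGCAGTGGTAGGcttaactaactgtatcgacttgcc

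Of these 300 bases, 57.3% were G or C. None of 5 motifs was found in them on either strand. The motifs were the forkhead motif TGTTTAC, the STAT motif TTCNNNGAA, the AP-1 motif TGANTCA, the Runx motif TGTGGT and the Ets motif AGGAAG. Among 32817 mouse promoters of this length, 3.65%, 8.29%, 7.81%, 16.8% and 35.4%, respectively, held each of them. The window itself measured 4.24, 4.30, 5.12 and 5.19 CPM in R26WT mice and 3.06, 4.51, 4.25 and 3.62 CPM in R26TIR1(F74G) mice on day 3. On day 7 it measured 3.88, 4.71 and 4.35 CPM in R26WT mice and 4.39, 4.95 and 4.55 CPM in R26TIR1(F74G) mice. The groups overlapped on both days, and its log2 fold change was -0.25 (SE 0.18) on day 3 and 0.10 (SE 0.19) on day 7.

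Accessibility of the locus was moderate. Mean levels over the 14 libraries ranged from 0.747 to 9.61 CPM with a median of 2.03 CPM, compared with a median of 1.80 CPM over all windows. The highest window lay inside the gene, 2.6 kb after the start site. The highest window within 1 kb of the start, 0.7 kb into the gene at chr7:98489908-98490109, reached 9.01 CPM. This is below the median of 18.5 CPM for the same measure over the 11617 protein-coding starts that had a window within 1 kb. Of these 11617 starts, 28.8% were lower. Starts without a window are not in this comparison, so the share does not rank Lrrc32 among all protein-coding genes. The start site of the neighbour Emsy, which encodes a chromatin-associated protein, reached 34.2 CPM.

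Open chromatin was spread beyond the gene. The 6 windows inside the gene had a median of 7.91 CPM, the 10 upstream windows 2.71 CPM and the 54 downstream windows 1.82 CPM. The region around the start site (8 windows, from -0.8 to 1.2 kb) and a region from 73.1 to 75.8 kb downstream (11 windows) were the most accessible, with summed levels of 29.1 and 28.8 CPM, each run counted once. A region from 44.7 to 46.0 kb (8 windows) followed with 13.4 CPM. The profile of the 70 windows was alike in all libraries, with a Pearson r of log2 levels between 0.78 and 0.95 (median 0.90) over 91 pairs of libraries. These libraries share the windows and their sequence, and the value is given as a description.

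**Figure D1:**
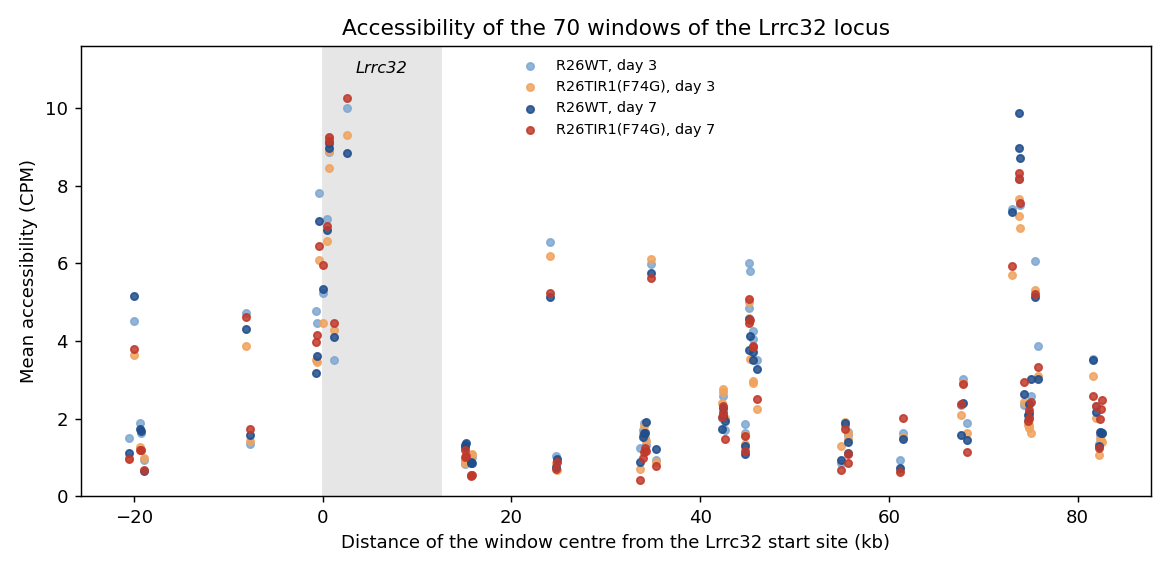
Mean accessibility (CPM) of each of the 70 windows in the 4 groups, against the distance of the window centre from the Lrrc32 start site in kb; the grey band is the gene body. The start region, the window at 2.6 kb and the region near 74 kb stand highest in every group, and the colours of the groups lie close together.

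No window of the locus passed the test between genotypes. With edgeR's quasi-likelihood test, fitted across all windows with p values adjusted by Benjamini-Hochberg and called under 0.05, 0 of 68 windows passed on day 7, 0 of 70 on day 3 and 0 of 70 in the fit of both days. The smallest adjusted p in these 3 comparisons was 0.801, 0.370 and 0.524. Few windows passed anywhere in the genome, namely 0.00463% of those tested for day 7, 0% for day 3 and 0.0112% in the fit of both days. At an unadjusted p under 0.05, edgeR gave 2, 10 and 9 windows of the locus, against 5.95%, 7.55% and 6.73% of all windows. DESeq2 gave 0, 7 and 9, with none past its adjusted threshold. It gave no adjusted p for some windows, among them the day 3 window of smallest p by edgeR, so these windows could not pass there.

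The depth bounds these differences. On day 7 the 95% interval of the log2 fold change lay within a 2-fold change either way for 44 of 68 windows, on day 3 for 58 of 70 and over both days for 67 of 70. In counts simulated from the libraries, windows averaging 50 or more counts were found in 74.6% of cases at a 2-fold change on day 7, in 85.1% on day 3 and in 100% over both days. At a 1.5-fold change the shares were 20.9%, 25.4% and 62.7%. The simulated windows were drawn from the whole table with no upper limit of counts, whereas the largest mean count at the locus was 139.1. The shares therefore include deeper windows and may be too high for this locus. Of the 70 windows, 23 had a mean count of at least 50, and the simulation gave no share for fainter windows.

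At the start site of Lrrc32, the window chr7:98489217-98489418 measured 3.81, 6.55, 5.67 and 4.90 CPM in R26WT mice on day 3 and 5.40, 4.67, 3.88 and 3.94 CPM in R26TIR1(F74G) mice. On day 7 it measured 5.30, 6.22 and 4.50 CPM in R26WT mice and 6.36, 6.20 and 5.31 CPM in R26TIR1(F74G) mice. The groups overlapped on both days, with the lower mean in R26TIR1(F74G) mice on day 3 and the higher mean in them on day 7. The log2 fold change of R26TIR1(F74G) over R26WT was -0.27 (SE 0.18, 95% interval -0.64 to 0.10, adjusted p = 0.782) on day 3 and 0.12 (SE 0.17, interval -0.23 to 0.47, adjusted p = 0.962) on day 7.

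The most accessible upstream window, chr7:98488829-98489030, lay in the same region, 0.4 kb before the start. It measured 7.79, 8.004, 6.08 and 9.38 CPM in R26WT mice and 6.11, 6.44, 5.29 and 6.52 CPM in R26TIR1(F74G) mice on day 3. It measured 6.65, 6.98 and 7.65 CPM in R26WT mice and 6.31, 7.15 and 5.87 CPM in R26TIR1(F74G) mice on day 7. On day 3, 3 of the 4 R26WT mice lay above every R26TIR1(F74G) mouse and the lowest R26WT mouse lay among them. The log2 fold change was -0.36 (SE 0.16, adjusted p = 0.618) on day 3 and -0.12 (SE 0.16, adjusted p = 0.954) on day 7.

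Inside the gene, the window chr7:98491765-98491966, the highest of the locus, varied widely between mice of 1 group. It measured 7.53, 8.34, 11.2 and 12.98 CPM in R26WT mice and 12.1, 7.73, 7.60 and 9.81 CPM in R26TIR1(F74G) mice on day 3. On day 7 it measured 7.04, 10.5 and 8.997 CPM in R26WT mice and 9.25, 10.6 and 10.93 CPM in R26TIR1(F74G) mice. The groups overlapped on both days, and the log2 fold change was -0.17 (SE 0.16, adjusted p = 0.860) on day 3 and 0.22 (SE 0.16, adjusted p = 0.903) on day 7.

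Downstream, the window chr7:98563037-98563238 at 73.8 kb was the highest. It measured 8.57, 7.01, 7.51 and 9.68 CPM in R26WT mice and 4.50, 8.37, 8.65 and 9.09 CPM in R26TIR1(F74G) mice on day 3. It measured 7.88, 11.1 and 10.7 CPM in R26WT mice and 6.95, 8.76 and 9.26 CPM in R26TIR1(F74G) mice on day 7. The low value on day 3 belonged to replicate 1, the library of least depth, and without it the day 3 log2 fold change moved from -0.04 (SE 0.16) to 0.08. The day 7 log2 fold change was -0.23 (SE 0.16, adjusted p = 0.897), with overlapping groups.

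**Figure D2:**
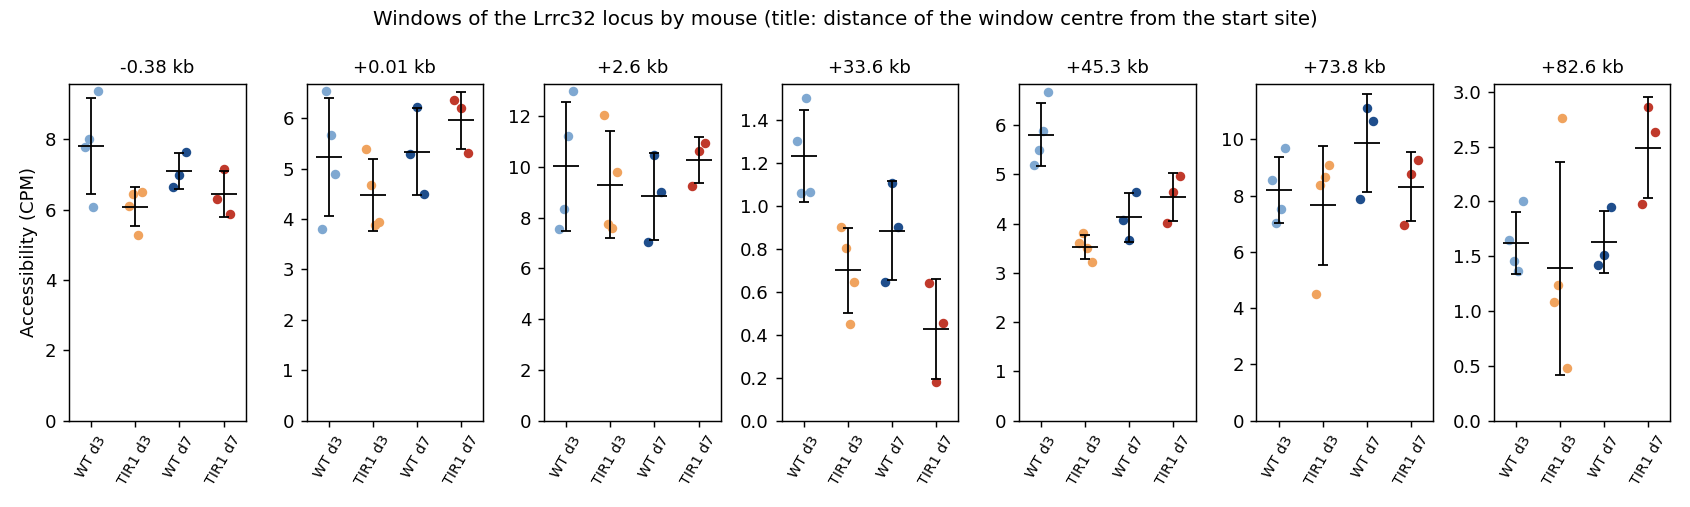
Accessibility (CPM) of the 7 windows described singly, each panel titled by the distance of its centre from the Lrrc32 start site; points are mice, long bars group means and whiskers SD (WT, R26WT; TIR1, R26TIR1(F74G); d3 and d7, days 3 and 7). Groups overlap in most panels; at 45.3 kb the 4 R26TIR1(F74G) mice of day 3 (3.22 to 3.81 CPM) lie below the 4 R26WT mice (5.19 to 6.67 CPM).

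On day 3, most windows of the locus had lower values in R26TIR1(F74G) mice, without any passing the test. The log2 fold change was below 0 at 55 of 70 windows (78.6%), compared with 48.8% of all windows tested, and its median was -0.16 against 0.01 over all windows. All 10 windows with an unadjusted p under 0.05 were lower in R26TIR1(F74G) mice, 14.3% of the locus, against 3.62% of all windows lower at that p. The 2 groups did not overlap, with R26TIR1(F74G) lower, at 7 of 70 windows, compared with 2.08% of all windows, and none was higher without overlap (2.01% of all windows). The windows overlap and share libraries, so that these counts are not independent observations. The 10 windows lay in 4 regions, and the count fell to 5 without replicate 2 or without replicate 3 of the R26WT mice, to 4 without replicate 4 of the R26TIR1(F74G) mice and to 6 in a fit with a term for the prefix of the mouse names. With total counts in place of TMM it was 5, with 47 of 70 windows below 0, and among the 22 windows tested at a mean count of 50 or more it was 3, with 17 below 0. The median stayed below 0 in these fits, at -0.18 with the prefix term, and was -0.22 without R26TIR1(F74G) replicate 1, the library of least depth. On day 3 the prefix E belonged to R26WT replicate 4 and R26TIR1(F74G) replicates 3 and 4, so prefix and genotype were partly aligned.

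Summed over the 41 runs, the level of the locus was 129.8, 139.1, 146.8 and 154.0 CPM in R26WT mice and 134.0, 126.4, 119.5 and 122.7 CPM in R26TIR1(F74G) mice on day 3. On day 7 it was 119.5, 137.1 and 145.3 CPM in R26WT mice and 119.4, 138.1 and 132.2 CPM in R26TIR1(F74G) mice. In order of their means, R26WT mice on day 3 (142 ± 10.4 CPM, SD, n = 4) were followed by R26WT mice on day 7 (134 ± 13.2, n = 3), R26TIR1(F74G) mice on day 7 (129.9 ± 9.59, n = 3) and R26TIR1(F74G) mice on day 3 (126 ± 6.23, n = 4). Neighbours in this order overlapped, and between the first and last group only R26TIR1(F74G) replicate 1 reached the range of the controls.

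Values of several marker lists on day 3 were set beside these. The summed level of the 5 T cell markers at their start sites was 53.1 to 61.1 CPM in R26WT mice and 37.6 to 54.5 CPM in R26TIR1(F74G) mice, and that of 9 genes of resting Treg cells was 187 to 224 and 155.5 to 210.4 CPM. Of the 10 genes of activated Treg cells 6 had a start window, with sums of 74.5 to 89.2 and 69.5 to 86.3 CPM. Mean sums were higher in R26TIR1(F74G) mice for CD8 T cell markers (13.4 in R26WT and 14.2 CPM in R26TIR1(F74G) mice) and for Ebf1 (3.11 and 3.62 CPM). They were 51.6 and 48.7 CPM for Treg cell markers, 13.6 and 12.9 CPM for myeloid markers, and 11.9 and 11.7 CPM for endothelial and stromal markers. The 20000 most accessible windows held 44.9% to 48.8% of the counts in R26WT libraries and 42.8% to 46.1% in R26TIR1(F74G) libraries. Their part in the lower values of the Lrrc32 locus was not tested.

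The window with the smallest p on day 3 lay 45.3 kb downstream, at chr7:98534539-98534740. It measured 5.19, 5.49, 5.87 and 6.67 CPM in R26WT mice and 3.60, 3.81, 3.503 and 3.22 CPM in R26TIR1(F74G) mice. On day 7 it measured 4.07, 3.66 and 4.65 CPM in R26WT mice and 4.01, 4.65 and 4.96 CPM in R26TIR1(F74G) mice. The groups were apart on day 3 and overlapped on day 7. The log2 fold change was -0.72 (SE 0.18, 95% interval -1.08 to -0.36, adjusted p = 0.370) on day 3 and 0.17 (SE 0.19, adjusted p = 0.943) on day 7. Leaving out each day 3 mouse in turn gave log2 fold changes between -0.77 and -0.64 and adjusted p values between 0.223 and 0.785.

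This window belonged to the region from 44.7 to 46.0 kb, in which all 8 windows had a log2 fold change below 0 on day 3, 4 of them at an unadjusted p under 0.05. The summed level of the region was 14.02, 14.2, 18.4 and 15.9 CPM in R26WT mice and 10.4, 14.3, 12.1 and 10.3 CPM in R26TIR1(F74G) mice on day 3. On day 7 the sums were 11.9, 11.4 and 15.3 CPM in R26WT mice and 12.99, 12.6 and 13.4 CPM in R26TIR1(F74G) mice. On day 3 a single R26TIR1(F74G) mouse reached the range of the controls, and on day 7 the R26TIR1(F74G) mice lay within it.

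**Figure D3:**
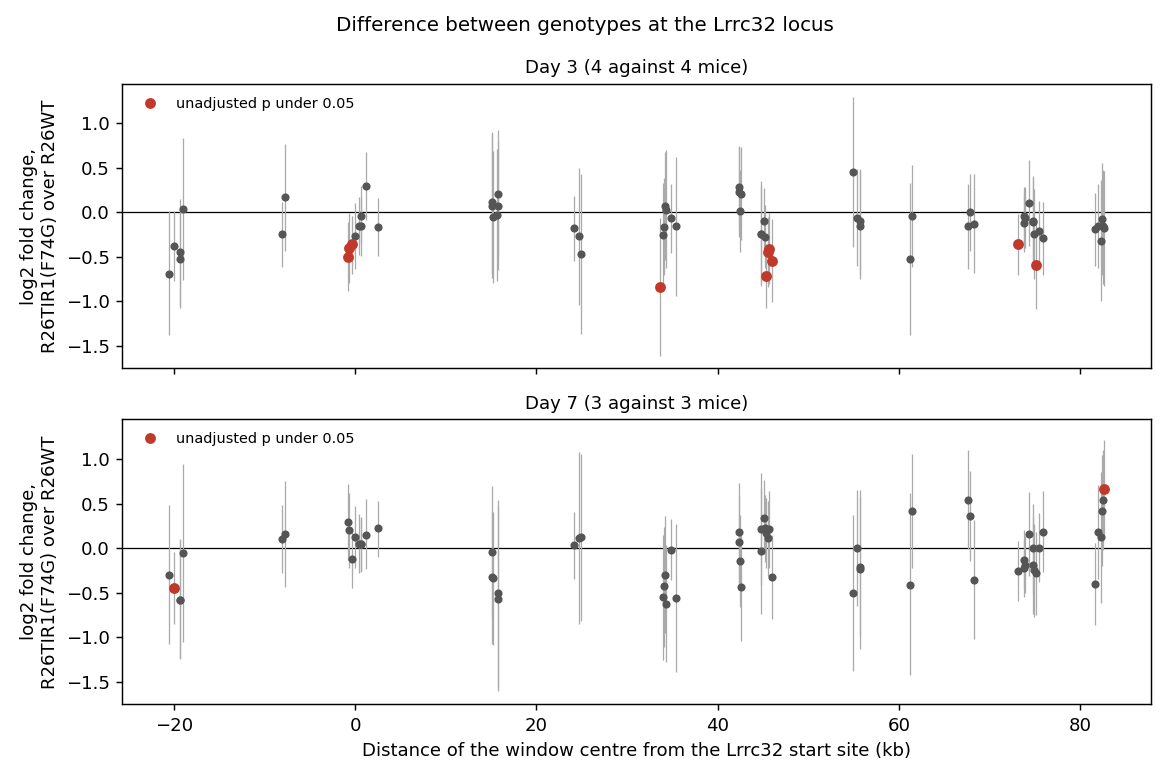
Log2 fold change of R26TIR1(F74G) over R26WT mice with its 95% interval for each window tested, against the distance of its centre from the Lrrc32 start site in kb, on day 3 (70 windows) and day 7 (68 windows). On day 3 the points lie mostly below 0, with the 10 windows at an unadjusted p under 0.05 in red; on day 7 they lie on both sides, and no point passes the adjusted threshold.

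Near 74 kb, the region of 11 windows, with each run counted once by its highest window, summed to 31.3, 30.4, 28.3 and 31.8 CPM in R26WT mice and to 21.6, 27.4, 28.1 and 26.2 CPM in R26TIR1(F74G) mice on day 3. On day 7 the sums were 28.2, 30.9 and 33.9 CPM in R26WT mice and 25.0, 31.1 and 28.4 CPM in R26TIR1(F74G) mice. The day 3 groups were just apart and the day 7 groups overlapped. At the window level, counted on rounded values, 10 of the 11 had a log2 fold change below 0 on day 3 and 7 of 11 on day 7. The window chr7:98564035-98564236, at -0.0 on day 7, was not counted as below 0. None passed the adjusted threshold.

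The most distant upstream region, from -20.5 to -19.0 kb relative to the start site and inside the body of Gucy2d, a gene for a membrane guanylyl cyclase, had lower means in R26TIR1(F74G) mice on both days. With each run of overlapping windows counted once by its highest window, its 5 windows summed to 8.74, 8.996, 9.36 and 8.26 CPM in R26WT mice and 8.45, 5.90, 7.68 and 5.47 CPM in R26TIR1(F74G) mice on day 3. On day 7 the sums were 7.88, 9.77 and 8.40 CPM in R26WT mice and 4.97, 9.0 and 5.87 CPM in R26TIR1(F74G) mice. One R26TIR1(F74G) mouse on each day lay within the range of the controls. Its strongest window, chr7:98469221-98469422, had a log2 fold change over both days of -0.41 (SE 0.14, adjusted p = 0.541). Lower means on both days were not particular to this region. They were also found in the regions from 15.1 to 15.8 kb, from 33.6 to 35.4 kb and from 73.1 to 75.8 kb.

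**Figure D4:**
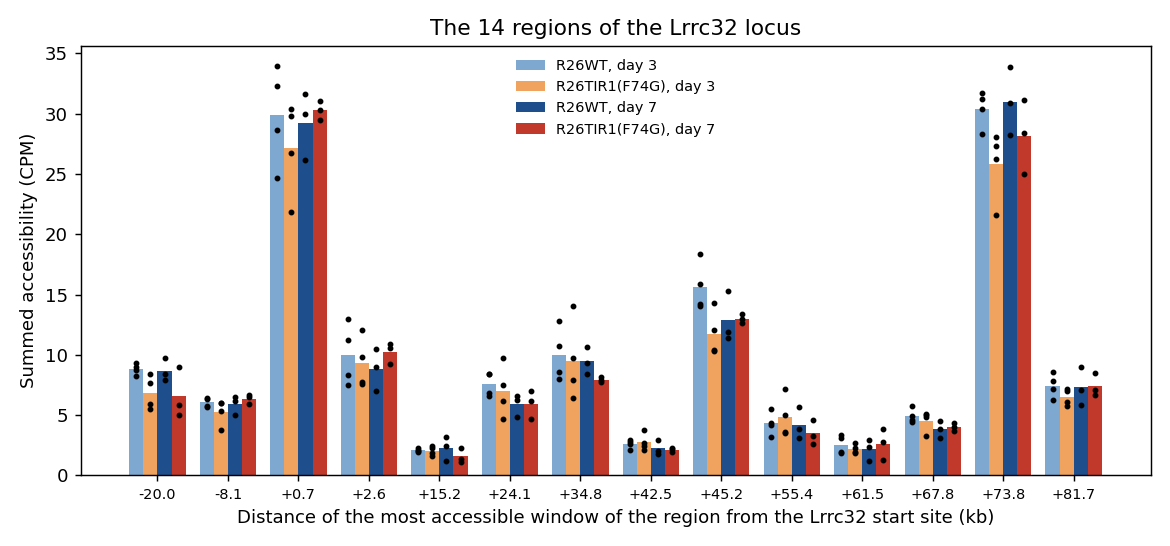
Summed accessibility (CPM, each run of overlapping windows counted once) of the 14 regions, labelled by the distance of their highest window from the Lrrc32 start site in kb; bars are group means and points are mice. At the region labelled 45.2 kb the day 3 R26WT bar (15.6 CPM) is above the day 3 R26TIR1(F74G) bar (11.8 CPM), while the day 7 bars are both near 13 CPM.

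On day 7, values at the locus lay on both sides of 0. The log2 fold change was below 0 at 36 of 68 windows, against 51% of all windows, with a median of -0.01, equal to that of all windows, and a range from -0.63 to 0.66. The groups did not overlap at 6 windows with R26TIR1(F74G) lower and at 2 with R26TIR1(F74G) higher, of 70, compared with 6.04% and 5.78% of all windows.

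The window with the smallest p on day 7, chr7:98571787-98571988 at 82.6 kb, measured 1.42, 1.51 and 1.95 CPM in R26WT mice and 1.98, 2.86 and 2.63 CPM in R26TIR1(F74G) mice. On day 3 it measured 1.65, 1.46, 1.37 and 2.01 CPM in R26WT mice and 1.08, 1.23, 2.76 and 0.483 CPM in R26TIR1(F74G) mice. The day 7 groups were narrowly apart, whereas on day 3 the R26TIR1(F74G) mice spread on both sides of the controls. The day 7 log2 fold change was 0.66 (SE 0.27, 95% interval 0.11 to 1.21, adjusted p = 0.801).

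Over both days, 55 of 70 windows had a log2 fold change below 0, against 49.3% of all windows, with a median of -0.12 (0.00 over all windows). At an unadjusted p under 0.05, 9 windows were lower, against 3.57% of all windows. No window kept all 7 R26TIR1(F74G) mice apart from all 7 R26WT mice, which held for 0.0635% of all windows with R26TIR1(F74G) lower and for 0.0527% with it higher. The smallest p belonged to a faint window at 33.6 kb, chr7:98522821-98523022. It measured 1.299, 1.06, 1.502 and 1.06 CPM in R26WT mice and 0.899, 0.805, 0.447 and 0.644 CPM in R26TIR1(F74G) mice on day 3. On day 7 it measured 0.646, 1.11 and 0.8997 CPM in R26WT mice and 0.642, 0.179 and 0.455 CPM in R26TIR1(F74G) mice. The groups were apart within each day, by a narrow margin on day 7, where the mean count was under 10 and the window was not tested. The log2 fold change over both days was -0.91 (SE 0.30, 95% interval -1.52 to -0.31, adjusted p = 0.524), from 3 to 22 counts per library.

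The genotype difference itself was compared between days. No window of the locus passed the interaction test, and 0% of all windows passed it. The smallest adjusted p was 0.596, at 45.3 kb, where the difference of log2 fold changes was 0.89 (SE 0.26). At an unadjusted p under 0.05 there were 4 of 70 windows, compared with 6.32% of all windows, and DESeq2 gave 2. So a difference between days was not shown for the locus. Between day 7 and day 3, 0 windows passed among R26WT mice (smallest adjusted p 0.870, 0.003% of all windows passing) and 0 among R26TIR1(F74G) mice (smallest adjusted p 0.601, 0% passing). At an unadjusted p under 0.05 each of these comparisons gave 5 windows by edgeR, against 5.25% and 6.96% of all windows, with 3 and 4 by DESeq2. The smallest p among R26WT mice was at 45.3 kb, with a log2 fold change of day 7 over day 3 of -0.53.

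Other genes of Treg cells and the neighbours of Lrrc32 were set beside it. At Il2ra, which encodes the alpha chain of the IL-2 receptor, the median log2 fold change of 53 windows was -0.10 on day 3 and -0.14 on day 7. At Il2rb, for the beta chain, it was -0.20 and -0.41 over 26 windows, and at Emsy -0.17 and -0.03 over 31 windows. The 2 windows of Gucy2d had medians of -0.10 and -0.08. No window passed at any of these loci on either day, and the day 3 median of Emsy was close to the -0.16 of Lrrc32. Differences between loci were not tested, and all loci were measured in the same libraries.

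A list of 30 other genes of TGF-beta handling and signalling had 940 windows, of which 0 passed in either direction in any of the 3 genotype comparisons. For day 7, day 3 and both days, their median log2 fold change was -0.03, -0.05 and -0.05, compared with -0.01, 0.01 and 0.00 over all windows, and 5.55%, 7.04% and 7.45% of their tested windows had an unadjusted p under 0.05. At the start sites, Tgfb1, the ligand that GARP docks, had a log2 fold change of -0.18 on day 3 and 0.03 on day 7. Itgb8, the integrin chain that takes part in its release, had 0.19 on both days, and Tgfbr2, a receptor chain, had -0.06 and -0.15. The docking gene Nrros had 0.03 on day 3 and -0.03 on day 7. The smallest adjusted p was at Smad3, a signal transducer of the receptor, where a window 20.3 kb downstream of the start site had a log2 fold change over both days of -0.44 (SE 0.10, adjusted p = 0.140).

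The genes whose summed accessibility followed that of Lrrc32 most closely over the 14 libraries were Zfp655 (Pearson r = 0.87, Spearman rho = 0.87), Ergic1 (0.87 and 0.83), Rnf114 (0.86 and 0.89), Ptpre (0.86 and 0.83) and Iscu (0.85 and 0.89), out of 14182 genes. Without the 2 libraries farthest from the median of Lrrc32, replicates 3 and 4 of the R26WT mice on day 3, the Pearson r of these genes lay between 0.74 and 0.90. They were chosen as the highest, and all points share libraries and their normalization, so that these values are a description. None of the 14182 genes had an r above 0.9.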

How the data were processed

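Libraries for bulk ATAC-seq were made from sorted Treg cells of 14 mice. The authors used Bowtie2 for alignment and MACS2 for peaks, merged the reproducible peaks into 1 set, and had featureCounts count the reads at each summit. The build is mm10, per the labels. The deposited values are raw counts of this kind in 240778 windows, without normalization. These are fewer windows than the summits the methods describe, none averages under 10.1 counts over the libraries, and all shares of windows given here refer to this set. Sorting was for CD4+ TCRβ+ ZsGreen+ cells, with mCherry for R26TIR1(F74G) mice. Groups and replicate numbers came from the labels, and each column was matched to its mouse.

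Start sites were those of 21900 protein-coding genes in RefSeq for GRCm38, with strand from RefSeq promoters for 17492 genes and from GENCODE by symbol for 3949. 459 genes without strand were not used, and exons were not used. As a check of the build, 51.8% of GRCm38 start sites lay within 500 bp of a window centre. Promoter sequences were from RefSeq (GRCm38.p6).

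Counts were tested with edgeR 4.0.16 (TMM normalization, quasi-likelihood test, mean count in the compared libraries 10 or more, Benjamini-Hochberg adjustment over all windows) in R 4.3.3, with limma 3.58.1, DESeq2 1.42.0 and Python 3.11.15. Standard errors were derived from fold changes and test statistics. CPM used TMM factors over all libraries. Likeness between genes was computed on log2 of the summed CPM with a pseudocount of 0.5, for genes with a mean sum of at least 5 CPM. The tests were tested on simulated counts. The alternatives were DESeq2, its size factors, total counts, loess offsets, other filters and threshold, other distances, each mouse left out, the mouse name prefix, a replicate block and a fit of all libraries. On day 7 only R26TIR1(F74G) replicate 3 had the prefix E, so the prefix term there acted much like leaving that mouse out.

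Windows described singly were the one nearest the start site, the highest upstream, inside and downstream, and that with the smallest p in each genotype comparison. The Gm38588 window, the strongest window of the Gucy2d region and the regions were added after values were seen. The members and lists were chosen with earlier results of these data known. The labels do not say whether mice were littermates. Intervals between mice are SDs. Since PCR copies were not marked by molecular identifiers, counts are not of independent molecules.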

Additional observations from a re-analysis of the deposited data

Results flagged for a closer look

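At the window 73.8 kb downstream of the Lrrc32 start site (chr7:98563037-98563238), the day 3 R26TIR1(F74G) mouse of replicate 1 stood apart from the other mice of its group, with 4.50 CPM against 8.37, 8.65 and 9.09 CPM. This library had the lowest total of all, and its value rests on 25 counts. Only the day 3 groups, of 4 mice each, were large enough to be examined, at the 7 windows described singly by the rule and for the summed level of the locus. Of these 16 groups, this was the only one with a mouse so far from the rest, and chance gives about 1 in 20 groups, or 0.8 of 16.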

How the results depend on the processing

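No window of the Lrrc32 locus passed in any of the 6 comparisons under any alternative or with any mouse left out. Windows to which DESeq2 gave no adjusted p, such as that at 45.3 kb on day 3, could not pass in that alternative. The smallest adjusted p over the alternatives was 0.480 on day 7, 0.223 on day 3, 0.294 over both days, 0.333 for the interaction, 0.525 between days in R26WT mice and 0.325 in R26TIR1(F74G) mice. The replicate numbers did not pair the mice (correlations of deviations from -0.0727 to 0.0665), and with a replicate block 0 windows passed, with 4, 9 and 9 at an unadjusted p under 0.05 for day 7, day 3 and both days, respectively. The day 3 median stayed between -0.22 and -0.10, the latter with total counts, where all windows had a median of 0.06. The number at an unadjusted p under 0.05 with a mouse left out ranged from 4 to 13 on day 3 and from 0 to 7 on day 7. It was 7 on day 7 without R26WT replicate 3, a library of low depth, and also without R26WT replicate 1. Directions were followed only at the 7 windows described singly by the rule, and reversed at 3 of them, whose differences were near 0 or faint. Over the whole locus on day 3, 47 of 70 windows lay below 0 with total counts, against 55 with TMM. At 73.8 kb the day 3 log2 fold change was 0.02 with total counts, 0.04 with loess offsets, 0.05 under the stricter filter (mean count 50 or more), 0.03 with the replicate block and loess offsets, and -0.12 to 0.08 with a mouse left out. At 82.6 kb it was -0.78 to 0.11 with a mouse left out, the positive value without replicate 4 of the R26TIR1(F74G) mice. At 2.6 kb the value over both days was -0.05 with a term for the mouse name prefix and -0.08 to 0.10 with a mouse left out. The cause was not tested. Within 50 kb the locus held 44 windows and within 1 Mb it held 70. On depth, 47 of 70 windows had a mean count under 50, for which the simulation gave no share found.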
